A study of Mus musculus with 10 samples.

Results

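The genes described here encode voltage-gated sodium and calcium channels and their auxiliary subunits, measured in cerebellum of mice without the clock gene Bmal1 and of their wild-type littermates. Members were chosen by symbol (Scn with a number and a or b, Cacna1, Cacna2d, Cacnb and Cacng) and by an authors' mean read count of at least 20 per gene. Of 22046 genes in the authors' table, 40 matched by symbol and 34 also passed the read count. They hold 7 sodium channel pore genes, 4 sodium channel beta genes, 9 calcium channel pore genes, 4 alpha2delta genes, 4 calcium channel beta genes and 6 Cacng genes. Just inside the limit lay Cacna1s with a mean count of 21.9 and just outside it Scn4a with 10.7. Scn10a, Cacna1f, Cacng1 and Cacng6 also lay below it.

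Ribosome profiling was done on snap-frozen cerebellum: RNase I trimmed 1 share of the lysate to ribosome-protected fragments (footprints), and the undigested share gave total RNA. The knockout mice were Bmal1-/- and the wild-type mice Bmal1+/+, littermates from heterozygous parents on a C57BL/6 background, housed with 12 h light and 12 h dark per day. The null allele is present in every cell of the body, and the labels give no sex, age or hour of sampling. Crosses with floxed Bmal1 and L7-Cre are mentioned in the labels, but none of the 10 libraries carries that genotype. Values exist here for 8 libraries: each of knockout 1, knockout 3, wild type 2 and wild type 3 has a total RNA and a footprint library. The other 2 total RNA libraries, knockout 2 and wild type 1, were not analysed here.

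Voltage-gated channels open when the membrane depolarizes. Sodium channel pore subunits, with their beta subunits, carry the upstroke of the action potential, and in Purkinje cells resurgent sodium current allows fast spontaneous firing. Calcium channel pore subunits are grouped by their currents into L, P/Q, N, R and T types, and the alpha2delta and beta subunits bring high-voltage-activated pores to the membrane and shape their gating. Despite their names, Cacng2, Cacng3, Cacng4, Cacng5, Cacng7 and Cacng8 encode TARPs, transmembrane proteins that bind AMPA-type glutamate receptors. The cerebellum depends on this family: mouse mutants with ataxia carry mutations in Cacna1a (tottering), Cacnb4 (lethargic), Cacna2d2 (ducky), Cacng2 (stargazer) and Scn8a (med).

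The promoter sequences are shown for Scn1a and Cacna1e because limma called these members, and no other, in total RNA. Windows run from 250 bases before to 50 bases after an annotated RefSeq start (GRCm38.p6, the mm10 assembly), and both are given 5′ to 3′ on the minus strand. Capitals mark matches to clock-related motifs, counted from the transcription start; the Scn1a window is chr2:66440788-66441087 and the Cacna1e window is chr1:154725871-154726170, inside the GENCODE span of that gene.
Scn1a: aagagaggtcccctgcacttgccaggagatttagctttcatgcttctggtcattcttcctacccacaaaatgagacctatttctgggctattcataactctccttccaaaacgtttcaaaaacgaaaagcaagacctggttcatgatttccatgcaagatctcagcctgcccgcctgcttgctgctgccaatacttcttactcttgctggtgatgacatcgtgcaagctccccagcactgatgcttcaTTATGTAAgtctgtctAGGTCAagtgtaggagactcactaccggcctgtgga
Cacna1e: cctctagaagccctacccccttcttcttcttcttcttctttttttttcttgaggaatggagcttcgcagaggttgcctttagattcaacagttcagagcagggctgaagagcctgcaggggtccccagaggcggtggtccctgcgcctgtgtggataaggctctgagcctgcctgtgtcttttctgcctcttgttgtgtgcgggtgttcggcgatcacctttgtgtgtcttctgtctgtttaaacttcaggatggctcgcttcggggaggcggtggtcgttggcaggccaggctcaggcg
In the Scn1a window the capitals are a D-box (TTATGTAA, the element bound by DBP and its relatives) whose first base is at -2, and the core of a ROR element (AGGTCA) whose first base is at 15. The Cacna1e window holds no match to the 4 motifs searched. These were the E-box CACGTG, which the BMAL1 and CLOCK dimer binds, the E'-box CACGTT, the D-box and the ROR core, each read on both strands, with no letters shared between any 2 matches printed.

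Of the 34 members, 26 had 37 windows. Cacna1a, Cacna1g, Cacna1h, Cacna2d4, Cacng4, Scn3a and Scn3b were among those with none. The E-box was in 0 of the 37 member windows and in 7.15% of all 32851 windows. The E'-box was in 1 (Cacnb1, at -154; 4.68% of all windows) and the D-box in 1 (Scn1a; 0.94%). The ROR core was in 3, those of Cacng8, Scn1a and Scn8a, against 16.26% of all windows. The member windows had a median GC content of 59.7%, against 52.7% for all windows. A match describes these letters only, and its absence says nothing about binding elsewhere.

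The targeted gene, whose symbol is Arntl, had 267 and 272 RPKM (reads per kilobase and per M reads) of total RNA in the knockout animals and 179 in both wild-type animals. Its footprints were 124 and 107 RPKM in the knockout and 258 and 295 RPKM in the wild type, so footprints were lower in both knockout animals while total RNA was higher. The deleted part of the gene is not named in the labels, so total RNA reads do not check the genotype. Recovered read totals were 25.6 M to 43.2 M for total RNA and 27.7 M to 41.0 M for footprints, and in total RNA the knockout depths all exceeded the wild-type depths. All 10 Purkinje and all 13 granule neuron markers listed passed the filter in total RNA and in footprints. Wild type 2 stood apart in a brainstem gene, with Hoxa5 total RNA at 40.6 RPKM against 1.39, 1.57 and 0.727 in knockout 1, knockout 3 and wild type 3. Wild type 3 stood apart in a choroid plexus gene, with Ttr at 208 RPKM against 11753, 13916 and 5390 in knockout 1, knockout 3 and wild type 2. In such bulk tissue, fewer cells of a type and less RNA per cell cannot be told apart.

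RPKM is compared below only within a gene, because the reads behind 1 RPKM ranged from 3.41 to 346.5 among the members with no relation to coding length. Differences are knockout minus wild type on the log2(RPKM + 1) scale from limma, with the standard error (SE), and "called" means a Benjamini-Hochberg adjusted p under 0.05 over all genes tested. In total RNA, 32 of the 34 members passed the filter of a mean of 1 RPKM (Scn11a and Cacna2d4 did not). Of these, 2 were called, Cacna1e higher and Scn1a lower in the knockout, where 4.09% of all 12690 genes tested were called. A further 13 had an unadjusted p under 0.05, 15 in all and 10 of them with a positive difference, against 22.1% of all genes. The knockout libraries lay above both wild-type libraries in 15 members (24.7% of all genes) and below both in 10 (30.3% of all genes). The median difference was 0.06 for the members tested and -0.02 for all genes tested. By limma-voom on recovered reads, 9 of the 32 were called, where 13.1% of all genes were: Cacna1a, Cacna1e, Cacna1i, Cacnb3, Cacng2, Cacng5 and Cacng7 higher, and Scn1a and Cacng4 lower.

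**Figure D1:**
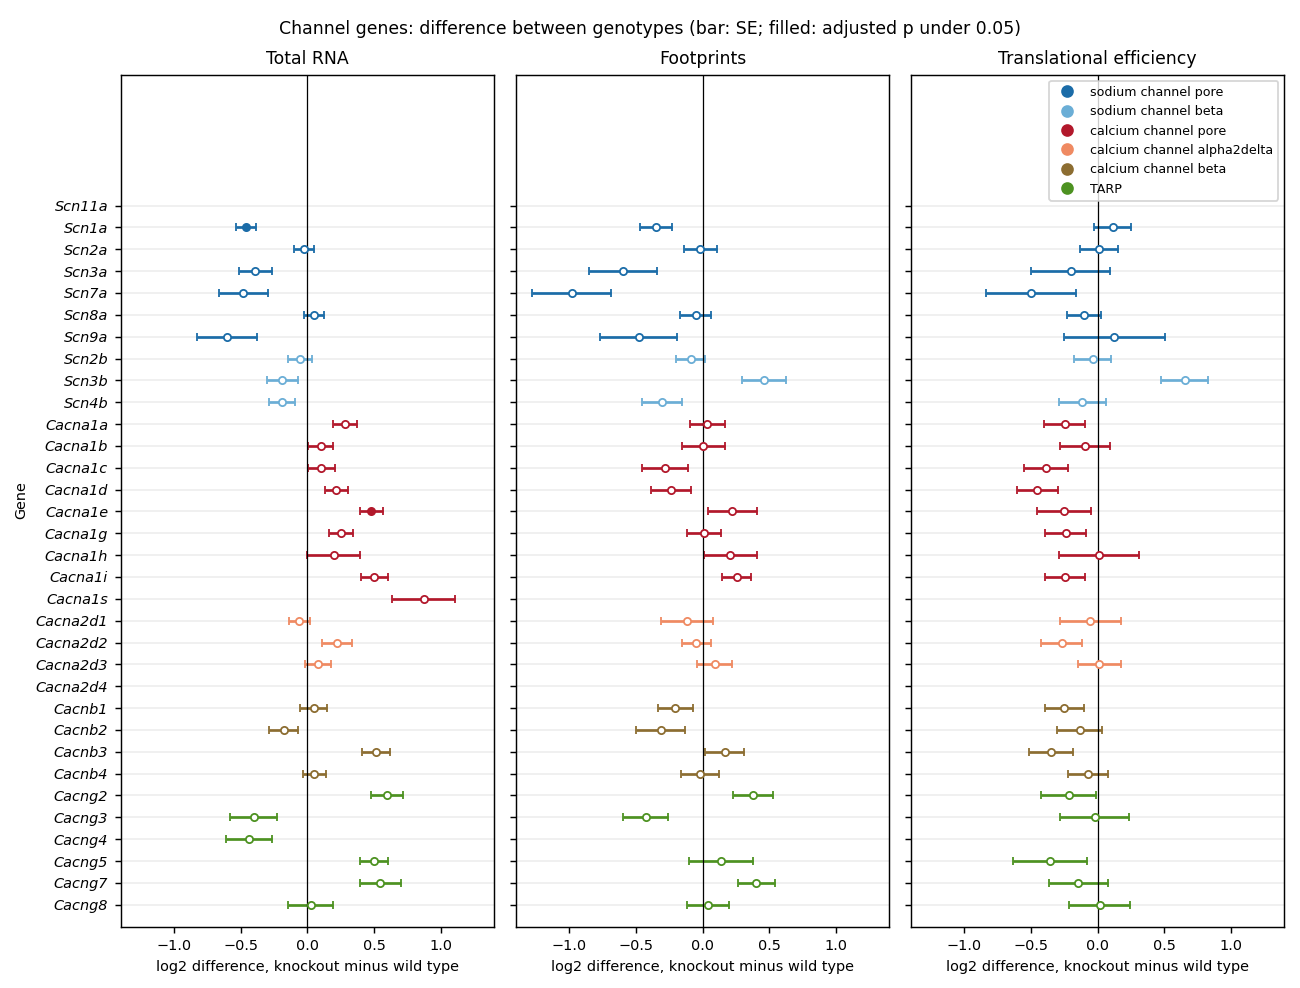
Log2 difference (x axis, knockout minus wild type, log2(RPKM + 1) scale) of the members shown in total RNA, footprints and translational efficiency, with bars of 1 SE from limma, coloured by role, for 2 animals per genotype. Filled points, Scn1a and Cacna1e in total RNA, have an adjusted p under 0.05, and listed members with no point did not pass the filter.

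Of the 7 sodium channel pore genes, 6 were tested in total RNA and 1 was called, Scn1a (4.09% of all genes). An unadjusted limma p under 0.05 was reached by 4, all lower (22.1% of all genes in either direction). In 4 both knockout libraries lay below both wild-type libraries (30.3% of all genes). Both counts hold Scn1a, Scn3a, Scn7a and Scn9a, and no test was made of these genes as a group. The difference was negative in 5 of the 6, Scn2a with overlapping genotypes among them, where 53.26% of all genes tested had a negative difference. Scn7a passed the filter only through its wild-type values (means of 0.745 RPKM in the knockout and 1.43 RPKM in the wild type), and Scn11a, which did not pass, was higher in both knockout libraries. Scn1a (ENSMUSG00000064329, mm10 chromosome 2, 66270778 to 66440840, minus strand) encodes Nav1.1, a channel of Purkinje cells and fast-spiking interneurons. Its total RNA was 2398 and 2494 RPKM in knockout 1 and 3, and 3529 and 3211 RPKM in wild type 2 and 3. Both knockout libraries lay below both wild-type libraries. Scn1a fell by 0.46 log2 units (SE 0.08; limma adjusted p = 0.0322), to 72.7% of the wild-type level, and by limma-voom the adjusted p was 0.000138. The call was lost without knockout 1 (adjusted p = 0.21), knockout 3 (0.104) or wild type 2 (0.071), with no filter on low values (0.141) and with all 8 libraries in one fit (0.0853), where the difference lay between -0.39 and -0.49. It held without wild type 3. Wild type 2 was the library high in Hoxa5 and wild type 3 the one low in Ttr, and their part in the result was not tested.

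Scn2a and Scn8a, which encode Nav1.2 and Nav1.6, the other abundant neuronal pores, had differences near 0. Scn2a had 642 and 679 RPKM in knockout 1 and 3 and 654 and 691 RPKM in wild type 2 and 3, so the genotypes overlapped. Its difference was -0.03 (95% interval -0.21 to 0.16; limma adjusted p = 0.878). Scn8a had 648 and 615 RPKM in the knockout and 607 and 613 RPKM in the wild type, a difference of 0.05 (95% interval -0.13 to 0.23; limma adjusted p = 0.734). The knockout libraries of Scn8a were just above the wild-type ones.

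None of the 3 low pore genes tested was called by limma or limma-voom. Scn3a, which encodes Nav1.3, had 6.06 and 7.25 RPKM in the knockout and 9.22 and 8.80 RPKM in the wild type (-0.39, SE 0.12, limma adjusted p = 0.147). Scn9a, which encodes Nav1.7 of peripheral sensory neurons, had 1.02 and 2.05 RPKM in the knockout and 3.15 and 2.43 RPKM in the wild type, the most negative difference of the members tested (-0.60, SE 0.23, limma adjusted p = 0.197). It rested on 38 and 85 recovered reads in the knockout and 79 and 65 in the wild type. Scn7a, which encodes the sodium-sensing channel Nax, had 0.926 and 0.564 RPKM against 1.69 and 1.18 RPKM (-0.48, SE 0.18, limma adjusted p = 0.202). In these 3 genes the knockout values lay below the wild-type values. Scn11a, which did not pass the filter, went the other way, at 0.342 and 0.492 RPKM in the knockout and 0.116 and 0.209 RPKM in the wild type.

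None of the 4 sodium channel beta genes was called in total RNA by limma, and 0 had an unadjusted p under 0.05 or a limma-voom call. Scn2b, which links covalently to the pore subunit, had 1742 and 1745 RPKM in the knockout and 1676 and 1953 RPKM in the wild type, with overlapping genotypes (-0.05, SE 0.09). Scn4b, whose cytoplasmic tail is tied to resurgent current, had 119 and 118 RPKM in the knockout and 145 and 126 RPKM in the wild type (-0.19, SE 0.10, limma adjusted p = 0.327). Scn3b had 9.28 and 8.34 RPKM against 10.8 and 9.54 RPKM (-0.19, SE 0.12). Scn3b and Scn4b were below both wild-type animals in both knockout animals, by less than the test could call.

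**Figure D2:**
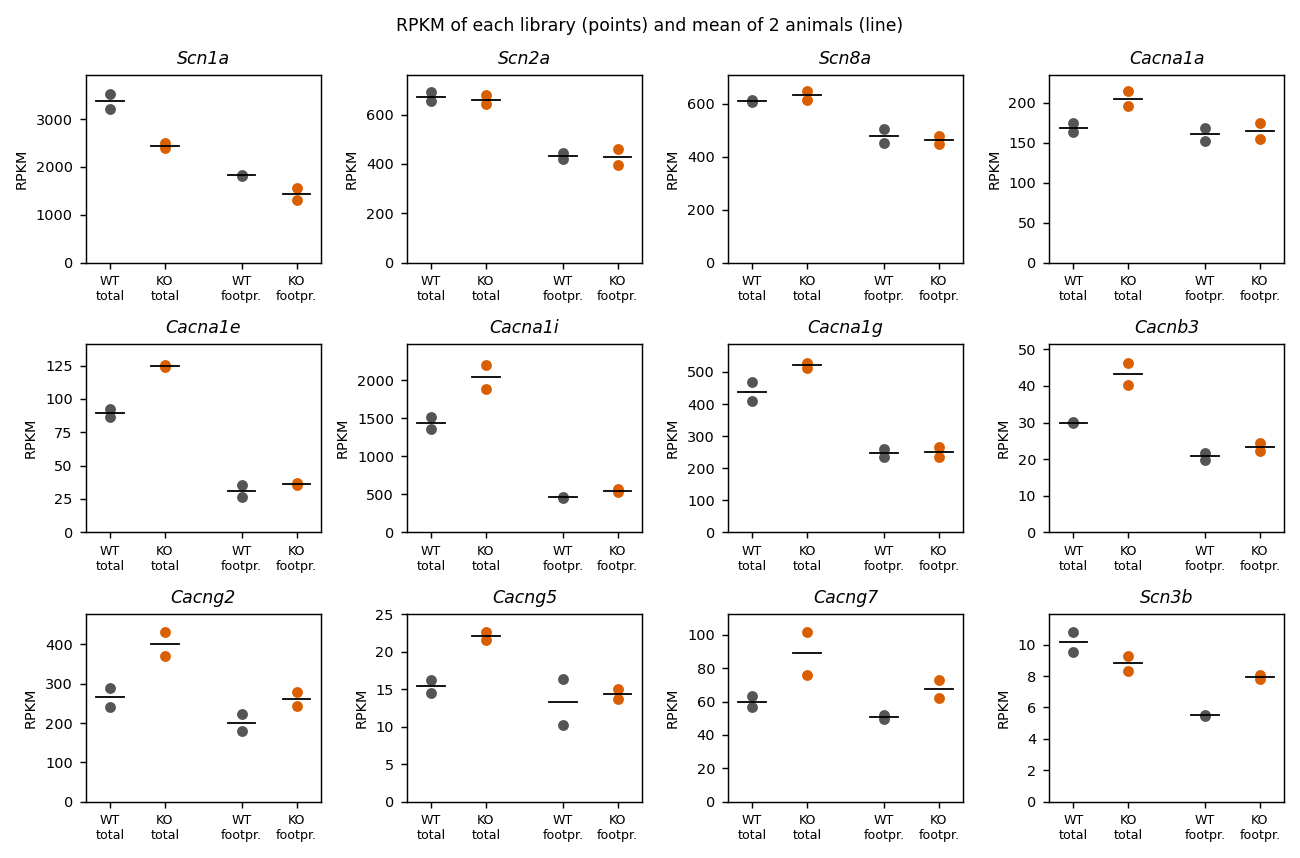
RPKM by library for members shown by gene, total RNA and footprints, with 1 point per animal and the genotypes in separate colours. Scn1a total RNA lies at 2398 and 2494 in the knockout and at 3529 and 3211 in the wild type, and Cacna1e total RNA at 124 and 126 against 86.4 and 92.3.

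All 9 calcium channel pore genes had a positive difference in total RNA, as had 5931 of all 12690 genes tested, and 1 of the 9 was called (4.09% of all genes). An unadjusted p under 0.05 was reached by 6 of them (22.1% of all genes), and in 7 both knockout libraries lay above both wild-type libraries (24.7% of all genes). The 9, the 6 and the 7 all hold Cacna1s, whose membership was tied to its knockout reads. No test was made of the 9 genes as a group. Cacna1e (ENSMUSG00000004110, mm10 chromosome 1, 154390731 to 154884501, minus strand) encodes the R-type pore Cav2.3. Its total RNA was 124 and 126 RPKM in knockout 1 and 3, and 86.4 and 92.3 RPKM in wild type 2 and 3, with the genotypes well apart. Cacna1e rose by 0.48 log2 units (SE 0.08; limma adjusted p = 0.0398), to 139% of the wild-type level, with a limma-voom adjusted p of 0.000152. As for Scn1a, the call was lost without knockout 1 (0.225), knockout 3 (0.166) or wild type 2 (0.093), with no filter (0.0966) and in one fit of all libraries (0.194).

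The other genes of the neuronal high-voltage-activated pores had smaller differences. Cacna1a, the P/Q-type pore that carries most calcium current in Purkinje cells, had 215 and 196 RPKM in the knockout and 174 and 164 RPKM in the wild type. The knockout was higher in both animals by 0.28 (SE 0.09), and the call differed by tool, with an adjusted p of 0.15 by limma and 0.0289 by limma-voom. Cacna1b, the N-type pore of presynaptic terminals, had 120 and 111 RPKM against 102 and 113 RPKM, which overlapped (0.10, 95% interval -0.13 to 0.33).

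The T-type genes, which encode low-voltage-activated channels, were 3. Cacna1i (Cav3.3) had 2204 and 1880 RPKM in the knockout and 1360 and 1517 RPKM in the wild type, a difference of 0.50 (SE 0.10) that just missed the threshold (limma adjusted p = 0.0556; limma-voom 0.000911). Cacna1g (Cav3.1), the T-type channel of Purkinje and deep nuclear neurons, had 529 and 512 RPKM against 409 and 467 RPKM (0.25, SE 0.09, limma adjusted p = 0.188; limma-voom 0.0603). Both genes had knockout values above both wild-type values. Cacna1h (Cav3.2) had 8.56 and 10.4 RPKM against 6.55 and 9.97 RPKM, which overlapped (0.20, SE 0.20).

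The members that encode L-type channels, the targets of dihydropyridine drugs, were Cacna1c, Cacna1d and Cacna1s. Cacna1d (Cav1.3) had 72.6 and 70.6 RPKM in the knockout and 60.7 and 62.2 RPKM in the wild type (0.22, SE 0.08, limma adjusted p = 0.207). Cacna1c (Cav1.2) had 16.4 and 15.3 RPKM against 14.3 and 15.0 RPKM (0.10, SE 0.10). Cacna1s, the pore of the skeletal muscle channel, had 4.45 and 6.99 RPKM against 2.09 and 3.21 RPKM, the most positive difference of the members tested (0.87, SE 0.23, limma adjusted p = 0.105). It rested on 79 and 138 recovered reads in the knockout and 25 and 41 in the wild type. Of 7 skeletal and cardiac muscle markers, 3 were tested and 0 called (1, Acta1, at an unadjusted p under 0.05), none was at 0 in every library, and their summed total RNA was 56.9 and 66.7 RPKM in the knockout and 52.5 and 66.2 RPKM in the wild type. Their part in the value of Cacna1s was not tested.

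Of the alpha2delta genes, which encode largely extracellular subunits, 3 were tested, 0 had an unadjusted p under 0.05 and none was called by limma or limma-voom. Cacna2d2, the ducky gene, had 102 and 86.4 RPKM in the knockout and 83.8 and 76.9 RPKM in the wild type (0.22, SE 0.11, limma adjusted p = 0.304). Cacna2d1 had 250 and 258 RPKM against 264 and 265 RPKM (-0.06, SE 0.08), just below the wild type in both animals. Cacna2d3 had 77.1 and 79.1 RPKM against 78.7 and 69.6 RPKM (0.08, SE 0.10), which overlapped. Cacna2d4 did not pass the filter, at 0.450 and 0.568 RPKM against 0.988 and 0.935 RPKM.

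Among the calcium channel beta genes, whose products are cytoplasmic, Cacnb3 had the largest difference. It had 46.3 and 40.3 RPKM in the knockout and 30.2 and 29.8 RPKM in the wild type (0.51, SE 0.10, limma adjusted p = 0.0543; limma-voom 0.00598). Cacnb4, the lethargic gene and the most read of the beta subunits here, had 104 in both knockout animals and 103 and 97.3 RPKM in the wild type (0.05, 95% interval -0.15 to 0.26). Cacnb1 (0.05) and Cacnb2 (-0.18) were not called.

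Of the 6 TARP genes, 4 had positive and 2 negative differences in total RNA, and 0 were called by limma. Cacng2, the stargazer gene, whose product delivers AMPA receptors to granule cell synapses, had 430 and 371 RPKM in the knockout and 288 and 242 RPKM in the wild type. Both knockout values lay above both wild-type values, by 0.60 log2 units (SE 0.12), and the adjusted p was 0.0528 by limma and 0.000242 by limma-voom. Cacng7 had 102 and 76.0 RPKM against 63.2 and 56.8 RPKM (0.55, SE 0.15, limma adjusted p = 0.113; limma-voom 0.00215). Cacng5 had 22.6 and 21.6 RPKM against 14.5 and 16.3 RPKM (0.50, SE 0.11, limma adjusted p = 0.0607; limma-voom 0.00125). In the other direction, Cacng4 had 1.66 and 1.15 RPKM against 2.55 and 1.95 RPKM (-0.44, SE 0.17, limma adjusted p = 0.216; limma-voom 0.0054). Cacng3 had 4.15 and 3.61 RPKM against 6.53 and 4.52 RPKM (-0.40, SE 0.18), and Cacng8 differed by 0.03 (SE 0.17).

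Granule neuron markers differed in part. Of 13 listed markers, 13 were tested in total RNA and 3 were called higher in the knockout (4.09% of all genes called), Fat2, Grin2c and Tiam1. An unadjusted limma p under 0.05 was reached by 7 (22.1% of all genes), and the median difference over the list was 0.27. Slc17a7 (0.44), Cbln1 (0.39), Cbln3 (0.31), Zic2 (0.27) and Cadps2 (0.19) had positive differences without a limma call. Neurod1 (0.10), Etv1 (0.01), Pax6 (-0.01), Gabra6 (-0.04) and Zic1 (-0.10) had differences near or below 0. The summed total RNA of the 13 markers was 8102 and 7753 RPKM in the knockout and 6073 and 6609 RPKM in the wild type, and none was at 0. In footprints 0 of the 13 were called by limma (0.233% of all genes) and 7 had an unadjusted p under 0.05 (10.4% of all genes), with a median of 0.34. Neurod1 (0.00), Zic1 (-0.05), Pax6 (-0.05) and Zic2 (-0.07) were near or below 0 there. The lists that follow are in total RNA, where 4.09% of all genes were called and 22.1% had an unadjusted limma p under 0.05. Purkinje markers had 0 of 10 called by limma (1, Calb1, at an unadjusted p under 0.05) and a median of -0.13. Interneuron markers had 1 of 10 called, Eomes, lower, and 4 at an unadjusted p under 0.05 (median -0.22). Choroid plexus markers had 2 of 6 called higher, Prlr and Sostdc1, and 5 at an unadjusted p under 0.05. Sostdc1 had 2.68 and 3.01 RPKM in the knockout and 0.564 and 0.0182 RPKM in the wild type. It passed the filter only through its knockout values, so its direction was tied to the filter. The summed total RNA of the choroid plexus markers was 12439 and 14643 RPKM in the knockout and 5707 and 263 RPKM in the wild type. Brainstem markers summed to 54.5 and 60.5 RPKM in the knockout and to 190 and 76.8 RPKM in wild type 2 and 3. Of the 7 tested, Slc17a6 was called lower and Tph2 higher, and these 2 alone had an unadjusted p under 0.05. Tph2 had 2.59 and 2.16 RPKM in the knockout and 0.665 and 0.979 RPKM in the wild type. It passed the filter only through its knockout values, so its direction was tied to the filter. Of the glial lists, astrocyte and Bergmann glia markers had 1 of 10 called, S100b, lower (median -0.01). Oligodendrocyte markers had 1 of 10 called, Mag, lower (median -0.12). In each of these 2 glial lists 4 had an unadjusted p under 0.05. In none of these lists was a marker at 0 in every library. The part of any of these lists in the channel gene differences was not tested.

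In footprints, 30 members passed the filter (Cacna1s and Cacng4 did not, beside the 2 above), and 0 were called by limma, where 0.233% of all 12447 genes were. By limma-voom 0 were called as well, where 1.63% of all genes were. An unadjusted p under 0.05 was reached by 5 of them, against 10.4% of all genes: Scn3b and Cacng7 with positive and Scn1a, Scn7a and Cacng3 with negative differences. Both knockout libraries lay above both wild-type libraries in 7 members (17.1% of all genes) and below both in 10 (22.6% of all genes). The median difference was -0.02 over the members tested and -0.03 over all genes tested.

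The footprint difference was negative in all 6 sodium pore genes tested (55.21% of all genes), and in 4 of them both knockout libraries lay below both wild-type libraries (22.6% of all genes). Scn11a, which did not pass the filter, was higher in the knockout, with means of 0.590 and 0.227 RPKM. Scn1a footprints were 1561 and 1314 RPKM in knockout 1 and 3 and 1814 and 1836 RPKM in wild type 2 and 3. The knockout values were lower in both animals, by -0.35 log2 units (95% interval -0.65 to -0.05; limma adjusted p = 0.393). Scn7a had 0.764 and 0.310 RPKM against 1.63 and 2.43 RPKM (-0.98, SE 0.30, limma adjusted p = 0.329), the most negative of the members tested. It passed the filter only through its wild-type values, with footprint means of 0.537 RPKM in the knockout and 2.03 RPKM in the wild type, so its place and direction were tied to the filter. Scn2a (-0.02) and Scn8a (-0.05) overlapped between genotypes, Scn2a at 460 and 396 against 420 and 444 RPKM and Scn8a at 477 and 447 against 452 and 506 RPKM.

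Scn3b, which encodes a beta subunit, had the most positive footprint difference. It had 7.82 and 8.08 RPKM in the knockout and 5.49 and 5.50 RPKM in the wild type (0.46, SE 0.16, limma adjusted p = 0.412). Scn4b had 81.2 and 78.4 RPKM against 109 and 89.1 RPKM (-0.30, SE 0.15), and Scn2b 725 and 683 RPKM against 784 and 716 RPKM (-0.09, SE 0.11). For Scn4b the knockout was below the wild type in both animals, as in total RNA.

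For the calcium pore genes 6 of 8 footprint differences were positive, as were 5575 of all 12447 genes tested. An unadjusted p under 0.05 was reached by 0 of the 8 (10.4% of all genes), and the median was 0.02. Cacna1e had 35.2 and 37.1 RPKM in the knockout and 26.5 and 35.7 RPKM in the wild type, which overlapped (0.22, 95% interval -0.23 to 0.68). Cacna1i had 524 and 569 RPKM against 453 and 461 RPKM, with the knockout higher in both animals (0.26, SE 0.11, limma adjusted p = 0.503). Cacna1a footprints were 154 and 175 RPKM against 153 and 169 RPKM (0.03), and those of Cacna1g 234 and 266 RPKM against 236 and 260 RPKM (0.01), with both genes overlapping. Cacna1c had 5.16 and 5.27 RPKM against 6.25 and 6.89 RPKM (-0.28, SE 0.17), and Cacna1d 23.0 and 23.8 RPKM against 25.6 and 30.0 RPKM (-0.24, SE 0.15).

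Of the remaining calcium channel subunits, Cacna1b footprints were 52.0 and 63.1 RPKM against 52.9 and 61.7 RPKM (0.00), and those of Cacna1h 6.53 and 8.79 RPKM against 6.50 and 6.38 RPKM (0.21). Cacna2d2 had 213 and 219 RPKM against 219 and 228 RPKM (-0.05, SE 0.11). Cacna2d1 had 330 and 244 RPKM against 274 and 344 RPKM (-0.11) and Cacna2d3 129 and 125 RPKM against 129 and 110 RPKM (0.09). Cacnb4 had 34.8 and 37.9 RPKM against 34.7 and 39.1 RPKM (-0.02). None of these was called.

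Of the TARP genes, Cacng7 had 73.0 and 62.2 footprint RPKM in the knockout and 49.8 and 51.7 RPKM in the wild type (0.40, SE 0.14, limma adjusted p = 0.403). Cacng2 had 244 and 278 RPKM against 180 and 222 RPKM (0.38, SE 0.15, limma adjusted p = 0.486). In both genes the knockout was higher in both animals, in footprints as in total RNA. Cacng5 had 13.7 and 15.1 RPKM against 10.3 and 16.3 RPKM, which overlapped (0.14, SE 0.24), and Cacng3 had 10.3 and 8.37 RPKM against 12.7 and 13.0 RPKM (-0.43, SE 0.17, limma adjusted p = 0.48). Over the 30 members tested in both kinds of library, the footprint and total RNA differences had the same sign in 23 (76.7%; 65.8% of all 12089 genes) and a Spearman rho of 0.75 (0.47 over all genes), as a description over genes whose 2 kinds of library come from the same animals.

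Translational efficiency is given per animal as footprint RPKM over total RNA RPKM, which lay within 2% of the authors' deposited ratio for all members. It was tested with limma's interaction term between genotype and library type. Of 30 members tested, 0 were called by limma, where 0.0165% of all genes were, and 0 by limma-voom, where 0.00835% were. An unadjusted p under 0.05 was reached by 3 of them, against 4.55% of all genes. The ratios of both knockout animals were above those of both wild-type animals in 1 member (14.3% of all genes) and below them in 13 (17.5% of all genes). The difference was negative in 23 of 30 members (76.67%), against 53.43% of all genes, with a median of -0.14 against -0.02.

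The only member with higher ratios in both knockout animals was Scn3b, at 0.843 and 0.968 against 0.507 and 0.577 in the wild type. Its difference was 0.65 log2 units (SE 0.18; limma adjusted p = 0.946, unadjusted 0.00705). The most negative difference was that of Scn7a (-0.50, SE 0.34, limma adjusted p = 0.997, unadjusted 0.176). Its ratios were 0.825 and 0.549 in the knockout and 0.969 and 2.05 in the wild type. Scn7a is counted among the 23 negative members and the 13 below, though it passed the filter only through its wild-type values. Cacna1d had ratios of 0.316 and 0.337 against 0.421 and 0.482 (-0.45, SE 0.15, limma adjusted p = 0.997, unadjusted 0.0201). Cacna1c had 0.315 and 0.345 against 0.436 and 0.460 (-0.39, SE 0.17, limma adjusted p = 0.997, unadjusted 0.0499). For both L-type genes the genotypes were apart, and the knockout values were higher in total RNA and lower in footprints. With the animal as a replicate block the unadjusted limma p values of Scn3b, Cacna1d and Cacna1c were 0.0193, 0.0397 and 0.0941. Scn1a ratios were 0.651 and 0.527 in the knockout and 0.514 and 0.572 in the wild type, which overlapped (0.11, 95% interval -0.22 to 0.44). Cacna1e ratios were 0.284 and 0.295 against 0.307 and 0.387 (-0.25, 95% interval -0.73 to 0.22). Neither of the genes called in total RNA had a called difference in efficiency, and both intervals span 0.

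**Figure D3:**
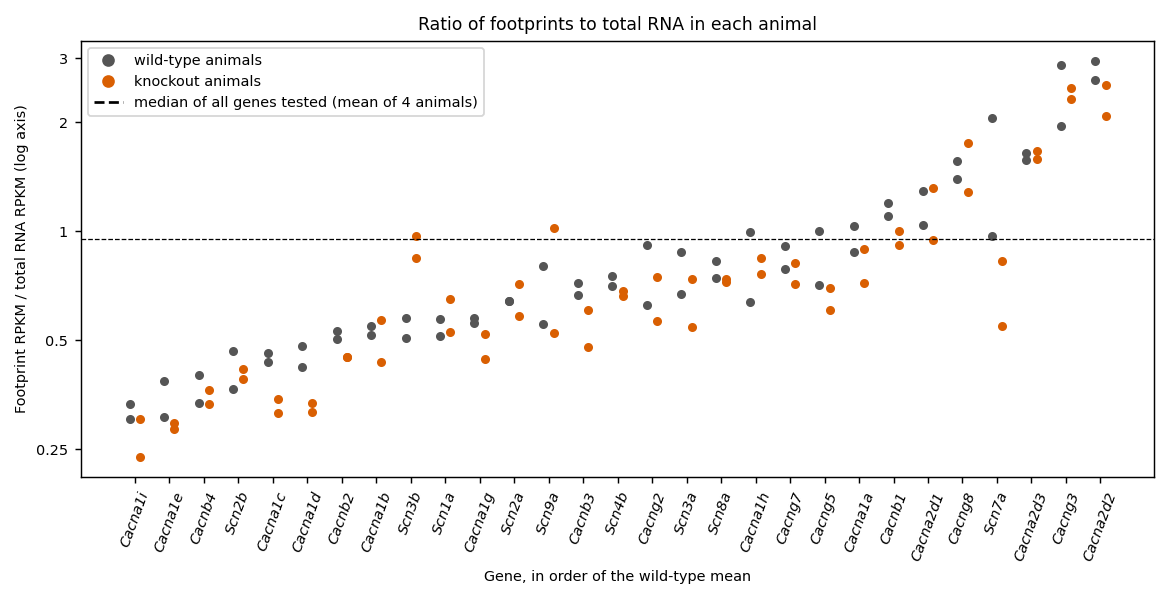
Ratio of footprints to total RNA for the members shown (ratio of the authors' RPKM), with 1 point per animal and the genotypes in separate colours, ordered by the wild-type mean. Cacna1i has the lowest wild-type mean, 0.318, and Cacna2d2 the highest, 2.78, and Scn3b is the member whose knockout points both lie above the wild-type points.

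The members differed among themselves in the ratio more than the genotypes did. In the wild type the mean ratio ran from 0.318 for Cacna1i, followed by Cacna1e (0.347) and Cacnb4 (0.369), to 1.61 for Cacna2d3, 2.41 for Cacng3 and 2.78 for Cacna2d2. The median over all genes was 0.960 in wild type 2 and 0.956 in wild type 3. In both wild-type animals 19 members lay below the median and 7 above it. The share of all genes on the same side in both animals was not counted, so these counts have no background beside them. The sodium pore genes Scn1a (0.543), Scn2a (0.642) and Scn8a (0.785) all lay below the median in both animals. Cacna1a, at 0.874 and 1.03, lay on both sides of it. The region the authors counted is not given, so the order of genes by this ratio can depend on it. Recovered reads per M were also set per kilobase, of coding sequence for footprints and of exons for total RNA. The wild-type means were then 145 and 74.9 for Cacnb4, and 6.77 and 15.7 for Cacna1i. A low ratio is therefore not read here as low translation of a gene against other genes.

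Levels between genes were compared per length, as recovered footprint reads per kilobase of GENCODE M21 coding sequence per M recovered reads, since the region the authors counted is not given. Among the members named here, the highest wild-type means were those of the small beta subunits Scn2b (480) and Scn4b (188), followed by Cacnb4 (145), Cacna2d2 (137) and the TARPs Cacng2 (89.2) and Cacng7 (87.6). Among the sodium pores Scn2a (84.1 and 88.9 in wild type 2 and 3) was above Scn8a (59.7 and 66.9), which was above Scn1a (43.5 and 44.0), with no overlap between neighbours. Scn3a (1.64), Scn7a (0.641), Scn9a (0.288) and Scn11a (0.170) were far below. Among the calcium pores Cacna1a (62.1) led, followed by Cacna1g (29.5) and Cacna1e (18.4). Cacna1c (7.72 and 8.50), Cacna1b (7.39 and 8.61) and Cacna1i (6.72 and 6.83) were next, of which Cacna1c and Cacna1b overlapped, and Cacna1d (4.25) and Cacna1h (1.01) followed. Cacna1s was the lowest member (0.0597), with 6 and 14 footprint reads in wild type 2 and 3 against 25 and 41 total RNA reads.

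**Figure D4:**
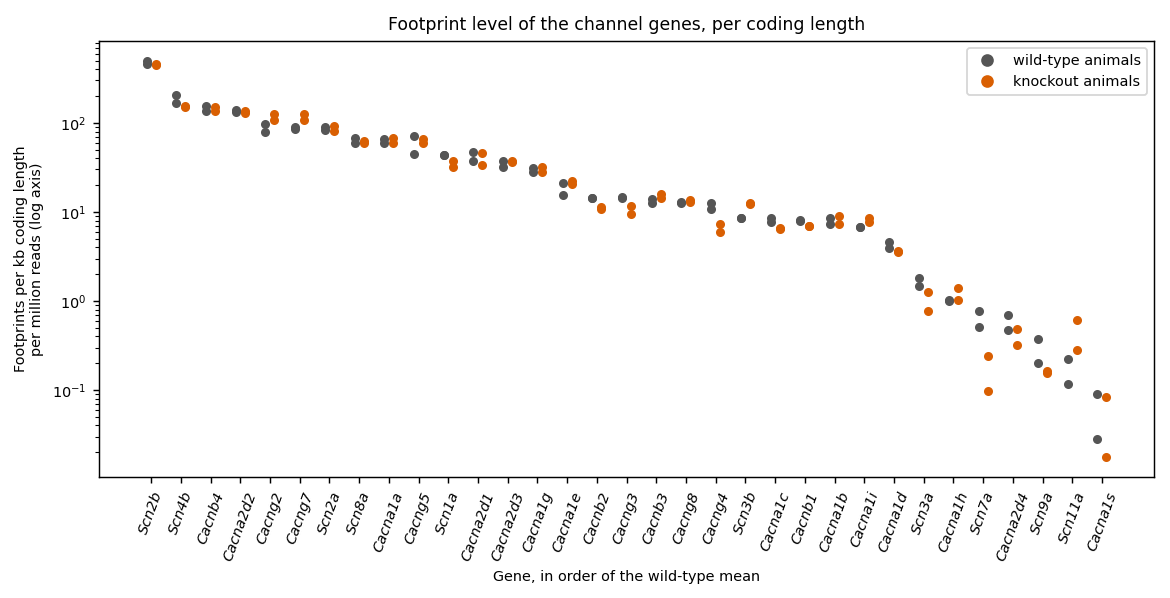
Footprint level of the members shown, as recovered reads per kilobase of coding sequence per M recovered reads (log axis), with 1 point per animal and the genotypes in separate colours. Of the members shown, Scn2b has the highest wild-type mean, 480, and Cacna1s the lowest, 0.0597.

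Partner genes of these channels were read beside them. Of 11 axon initial segment and sodium channel partners tested in total RNA, 0 were called by limma and 3 had an unadjusted p under 0.05, a share near the 22.1% of all genes: Nfasc (0.29, limma adjusted p = 0.131) and Ank3 (0.28, 0.208), which anchor channels at the axon initial segment, and Fgf13 (-0.24, 0.224), an intracellular sodium channel modulator. Their median difference was 0.11. Of 16 calcium channel partners tested, 0 were called by limma and 3 had an unadjusted p under 0.05, again near the share of all genes, with a median of 0.05. These were Rims1 (0.17), a presynaptic scaffold that binds calcium channels, Calm2 (-0.30), a calmodulin gene, and Kcnn2 (-0.25), a calcium-activated potassium channel gene of Purkinje cells. The 4 tested genes of the sodium leak channel complex had differences between -0.04 and -0.02, with 0 called by limma and 0 at an unadjusted p under 0.05. In footprints 0 genes of these 3 lists were called by limma, with 0, 2 and 0 at an unadjusted p under 0.05, the 2 being Rimbp2 (-0.35) and Kcnn2 (-0.46). In efficiency 0 were called by limma and 0 had an unadjusted p under 0.05.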

How the data were processed

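Total RNA and footprint libraries of cerebellum were analysed from 2 knockout and 2 wild-type animals; 2 further total RNA libraries were not analysed here. Per the file headers, the authors' values are RPKM per gene and library, and the second table holds the authors' ratio of footprint to total RNA per animal. Bowtie, STAR, Cufflinks and mm10 are named in the submitters' processing notes; versions, settings and the counting region are not given in the sources used here. All 136 deposited ratios of members equalled the ratio of RPKM within 2%.

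Whole reads were recovered from the RPKM steps and the authors' mean read count: of 3328 values of 416 low genes, 99.91% lay within 0.1 of a whole number, and 13880 genes had reads in all libraries. The fits used R 4.3.3 and limma 3.58.1 (eBayes, trend) on values of log2(RPKM + 1). Genes entered with a mean RPKM of 1 or more in the compared libraries, and Benjamini-Hochberg adjustment ran over all of them. Efficiency was the genotype by library type interaction. The scripts were tested on simulated data. With 2 animals per genotype an exact permutation test cannot give a two-sided p below 0.333, and p-values measure the spread between these samples only. In total RNA, depth and genotype cannot be told apart.

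Alternatives were a pseudocount of 0.1, no filter, quantile normalization, limma-voom on recovered reads (which called 1623 genes in total RNA, 200 in footprints and 1 in efficiency), all libraries in one fit, the animal as a replicate block, and each animal left out; a minimum mean count of 100 reads was added after seeing the data. The pairing comes from the labels' protocols, in which 1 lysate gives both libraries with the same number; over 12089 genes the deviations of the 2 libraries from their group means correlated at -0.004 for knockout and 0.259 for wild-type animals. The designs had been written for all libraries with a column.

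Values in every library are given for members called, for the extreme differences of each comparison, and for a set of pore and auxiliary genes listed by role; others could be named. Individual values of 1 member are not reported here, while counts and medians include it. The members, lists and markers were chosen with earlier results of these data known. Gene positions are from GENCODE M21, promoters from RefSeq.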

Additional observations from a re-analysis of the deposited data

How the results depend on the processing

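In total RNA 2 members were called; with a pseudocount of 0.1 and with quantile normalization the count was also 2, with no filter 0, by limma-voom 9, with all libraries in one fit 0, with a mean count of at least 100 reads 6, and with 1 animal left out 0 to 2 (0 without knockout 1, knockout 3 or wild type 2, and 2 without wild type 3). The 6 were Cacna1e, Scn1a, Cacna1i, Cacng2, Cacnb3 and Cacng5; this alternative was chosen after seeing the data. Among all genes 519 were called in total RNA, with no filter 26, by limma-voom 1623, in one fit 217, with at least 100 reads 798, and with 1 animal left out 117 to 563. In footprints 29 were called, with a pseudocount of 0.1 17, with no filter 1, by limma-voom 200, in one fit 315, with at least 100 reads 57, and with 1 animal left out 1 to 6. In efficiency 2 were called, with a pseudocount of 0.1 5, with no filter 0, with quantile normalization 0, by limma-voom 1 and with 1 animal left out 0. With the animal as a replicate block 1 gene was called in efficiency and 0 members, so that the block changed no call of a member. No paired analysis was possible for total RNA or footprints alone because the genotypes share 1 animal number only, by label and not by litter. Members called in footprints and in efficiency were 0 under every alternative run. The cause of these differences was not tested.

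Of 629 values of named members under an alternative, 577 kept direction and side of the threshold, 10 lost and 5 gained a call, and 37 changed sign, none of them called. With quantile normalization the footprint differences of Cacnb4 (0.0012) and Scn2a (0.0179) and the efficiency difference of Scn2b (0.0295) turned positive. With 1 animal left out, the values of differences that changed sign ranged as follows. In total RNA they were Cacna1h -0.0715 to 0.468, Cacna2d3 -0.0098 to 0.164, Scn2a -0.0665 to 0.0143 and Scn2b -0.163 to 0.0575. In footprints they were Cacna1a -0.0556 to 0.123, Cacna1b -0.133 to 0.142, Cacna1g -0.0819 to 0.101, Cacna2d1 -0.331 to 0.101, Cacna2d3 -0.0289 to 0.208, Cacnb4 -0.105 to 0.0625, Scn2a -0.125 to 0.0905 and Scn8a -0.133 to 0.0316. In translational efficiency they were Cacna1b -0.286 to 0.0973, Cacna1h -0.273 to 0.29, Cacna2d1 -0.295 to 0.184, Cacna2d3 -0.026 to 0.0511, Cacnb4 -0.201 to 0.0525, Cacng2 -0.493 to 0.0567, Scn1a -0.0403 to 0.264, Scn2a -0.139 to 0.157, Scn2b -0.213 to 0.138 and Scn9a -0.164 to 0.409.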
